A study of Homo sapiens with 8 samples.

Results

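The difference of the serum responses was taken as the serum response of U2OS cells that overexpressed the actin mutant G13R minus the serum response of U2OS cells that expressed GFP. It was computed gene by gene on log2(FPKM + 1), where FPKM is the number of fragments scaled to transcript length and to all mapped fragments. Every gene with at least 1 FPKM in at least 2 of the 8 libraries entered, which gave 12996 of the 22504 genes in the table. A positive difference means that a gene's value moved further up, or less far down, with serum in G13R cells than in GFP cells.

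U2OS is an established human osteosarcoma line, and its poly(A) RNA was sequenced in 4 groups of 2 libraries: GFP and G13R cells, each grown normally or stimulated with serum. All groups share the parental line, and the GFP cells carry no mutant actin. The labels do not say which actin gene holds the mutation, what drives either transgene, whether a line is 1 clone, how long serum was applied or whether it was withdrawn first. Whether the libraries of a group are separate cultures is not stated either. The p-values therefore rest on library spread alone, and that spread could be purely technical.

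Serum growth factors act through receptor kinases and the ERK kinases on immediate-early genes, which are transcribed without new protein synthesis. Many of those genes are bound by SRF with its TCF partners, while SRF with its MRTF partners serves cytoskeletal genes. MRTF binds unpolymerised actin, and G13R is known as a mutant actin that does not polymerise, so the comparison asks whether mutant actin alters the transcriptional response to serum.

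The libraries summed to between 496166 and 559496 FPKM, and 12065 to 12568 genes reached 1 FPKM in each. The GFP serum libraries were the least alike, with 186 genes over 2-fold apart on the log2(FPKM + 1) scale against 87 to 102 in the other groups. Osteoblast lineage markers summed to between 83.4 and 95.8 FPKM, and 6 of the 12 (SP7, IBSP, DLX5, PHEX, TNFSF11 and SOST) stayed under 1 FPKM in every library. The 8 leukocyte markers summed to 12.02 to 17.4 FPKM with 6 of them, PTPRC, CD3E and CD14 among these, under 1, and the 8 endothelial markers to 2.06 to 3.93. The 8 neural markers summed to 36.98 to 44.0 FPKM. The 10 epithelial markers summed to 694 to 788 FPKM in GFP cells in normal growth and 908 to 1067 after serum, and to 538 to 598 and then 705 to 710 in G13R cells. KRT19, GRHL2 and ESRP1 were under 1 FPKM throughout, and the part of these levels in the differences was not tested. ACTB, the cytoplasmic beta-actin gene, was higher in G13R cells by 1.98 ± 0.08 on the log2 scale in normal growth and 1.69 ± 0.08 after serum, and these values cannot tell mutant from endogenous transcripts. Errors beside log2 values are SE.

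No single gene passed the test of the difference, and of the 26 gene lists ribosome biogenesis factors had the highest median difference (0.50) and immediate-early regulators the lowest (-0.44). TGF-beta and BMP targets stood lowest instead without GFP serum replicate 2 (-0.26 against -0.23 for immediate-early regulators) or with a filter at 5 FPKM, and FOXO and starvation genes at a pseudocount of 0.1. Ribosome biogenesis stood highest under each of these and every other alternative run. In limma's test with Benjamini-Hochberg adjustment, 0 genes were higher and 0 lower (0% of all tested), and the smallest adjusted p was 0.259, shared by 48 genes. At an unadjusted p under 0.05 stood 1533 genes (11.8%), of which 999 (7.69%) were higher and 534 (4.11%) lower. That split was 754 and 693 with median-ratio scaling, 713 and 669 with quantile normalization and 743 and 599 without limma's trend. Counts of a gene list at that p in the fit of all libraries are to be read against 7.69% higher and 4.11% lower. The median difference of all genes was 0.04, and the 95% interval of a gene at the median SE reached 0.494 to either side of its value. A difference of at least 2-fold was measured for 87 genes on the higher side (0.669%) and 164 on the lower side (1.26%).

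The count of 0 depended on which GFP serum library was kept. Without GFP serum replicate 1, 301 genes were higher (2.32%) and 185 lower (1.42%) at an adjusted p under 0.05, together 3.74%, and 2560 in all had an unadjusted p under 0.05. Without GFP serum replicate 2 the adjusted counts were again 0 and 0, and 1214 genes had an unadjusted p under 0.05. The unadjusted count was 1004 without G13R normal replicate 1 and 976 without G13R serum replicate 1. Each fit without a library takes 1 sample as its group's mean and assumes that it varies like the other groups. Counts given below for a gene list without a library are to be read against these totals of all genes, which also changed with the library left out.

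A second reading used each library pairing. A gene's responses were said not to overlap when all 4 pairings of a serum with a normal growth library in G13R cells lay above, or below, all 4 in GFP cells. On this reading 2272 genes (17.5%) were higher and 1286 (9.9%) lower. Genes described below were taken from the 24 with the smallest p and a mean of at least 2 FPKM, the 3 of smallest p in each of 26 gene lists, and a few set genes such as FOS and EGR1. All 24 had responses without overlap and the same adjusted p of 0.259, 10 on the higher side and 14 on the lower side. Since they were chosen by that p, their values are given as a description. A gene is said to have risen or fallen in a line where limma's adjusted p for that line's serum response was under 0.05, as for 14.9% and 15.7% of all genes in GFP cells and 8.26% and 4.62% in G13R cells. Of the 104 genes so chosen, 76 had such a call in GFP cells and 43 in G13R cells. Under at least 1 alternative 25 and 24 of these calls were lost, and 0 changed direction. Those lost with no filter included the G13R call of FOS and the GFP calls of DUSP7, YPEL2, CRYAB and MET. Besides those given beside the genes, G13R calls of PNRC1, PLK2, POLR1E and MMP2 were lost without any 1 of the 4 G13R libraries, those of NLRP10, STAT2, SKIL and IGFBP5 without G13R normal replicate 1 or either G13R serum library, that of SLC25A22 without G13R normal replicate 2 or either G13R serum library, and that of PLAUR without G13R serum replicate 2. Among GFP calls, that of TGFB1I1 was lost without either GFP normal library or GFP serum replicate 2, those of ARHGEF2, GADD45A and VCL without GFP normal replicate 1, that of MCM2 without GFP normal replicate 2, that of SLBP without GFP normal replicate 1 or GFP serum replicate 2, and that of POLR2B without replicate 1 of either GFP condition.

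**Figure D1:**
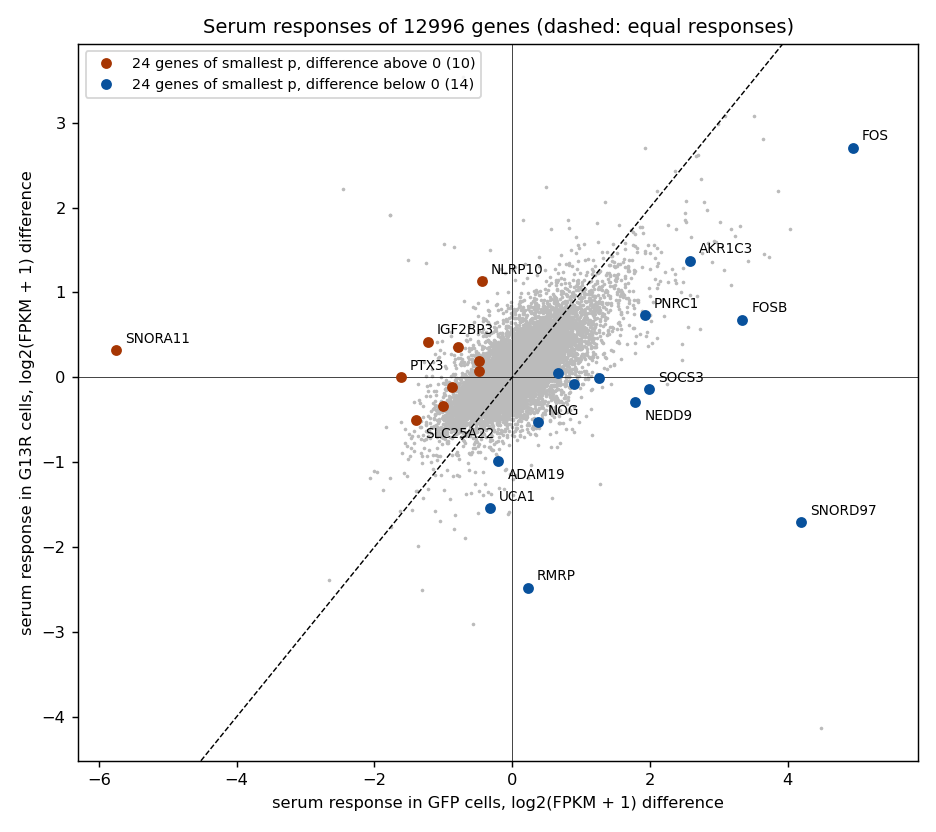
Serum response of each of 12996 genes in GFP cells (x axis) and in G13R cells (y axis), both as log2 differences of FPKM + 1, with the genes of smallest p of the difference named. FOS lies at 4.95 and 2.71, far under the line of equal responses, and PTX3 at -1.62 and 0.00, above it.

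Immediate-early regulators, which include FOS, EGR1 and MYC, stood mostly on the lower side. Their promoters are shown because FOS, FOSB and DUSP1 had wide differences while EGR1, with a serum response of similar kind, had a narrow one. Each sequence is the 250 bases before the RefSeq start in GRCh38.p14, written 5′ to 3′ along the gene: FOS at chr14:75278578-75278827 on the plus strand, FOSB at chr19:45467746-45467995 on the plus strand, DUSP1 at chr5:172771196-172771445 on the minus strand, and EGR1 at chr5:138465229-138465478 on the plus strand. Capitals mark matches to TGACG on either strand (the core of CREB sites, shown as CGTCA where it lies on the other strand), to TATAAA, and to the CArG box, the sequence SRF binds.
FOS: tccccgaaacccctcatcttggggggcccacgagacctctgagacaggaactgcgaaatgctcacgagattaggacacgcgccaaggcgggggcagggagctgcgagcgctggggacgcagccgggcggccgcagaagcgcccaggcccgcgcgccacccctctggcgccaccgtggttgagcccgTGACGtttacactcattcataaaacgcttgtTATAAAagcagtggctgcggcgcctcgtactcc
FOSB: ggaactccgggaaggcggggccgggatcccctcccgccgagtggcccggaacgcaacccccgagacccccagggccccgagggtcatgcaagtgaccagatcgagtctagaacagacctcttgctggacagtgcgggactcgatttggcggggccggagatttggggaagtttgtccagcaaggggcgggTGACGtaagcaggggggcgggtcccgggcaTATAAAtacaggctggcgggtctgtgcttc
DUSP1: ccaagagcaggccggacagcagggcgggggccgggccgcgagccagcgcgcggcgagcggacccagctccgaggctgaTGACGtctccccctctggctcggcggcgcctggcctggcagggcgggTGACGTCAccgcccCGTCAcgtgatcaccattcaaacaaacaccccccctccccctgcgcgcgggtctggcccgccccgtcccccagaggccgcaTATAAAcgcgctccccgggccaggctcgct
EGR1: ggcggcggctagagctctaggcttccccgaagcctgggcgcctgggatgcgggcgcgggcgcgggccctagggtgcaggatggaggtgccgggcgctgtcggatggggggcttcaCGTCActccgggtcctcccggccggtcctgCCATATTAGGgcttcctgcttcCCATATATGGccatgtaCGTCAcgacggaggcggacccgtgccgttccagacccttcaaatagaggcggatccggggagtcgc
EGR1 held 2 CArG boxes, from -105 to -96 and from -83 to -74 before the start, 2 TGACG matches, at -135 to -131 and -66 to -62, and no TATAAA match in this window. TGACG was thus present in all 4 windows. FOS had TGACG at -64 to -60 and TATAAA at -33 to -28, and FOSB had them at -60 to -56 and -30 to -25. DUSP1 had 4 TGACG matches over both strands, 2 of which overlap in 1 palindrome, and TATAAA at -30 to -25. Both strands were searched, and of 35116 such windows 21.2% held TGACG, 10.7% TATAAA and 1.16% a CArG box. A match describes the letters only, and the windows do not reach further upstream. A window without a CArG box therefore does not show that FOS, FOSB or DUSP1 lack an SRF site elsewhere. Whether any of these matches relates to the width of a difference was not tested.

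FOS, the inducible partner of JUN in the AP-1 factor (chromosome 14, 75745477 to 75748933 in hg19), had 4.04 and 4.61 FPKM in the normally grown GFP libraries and 109.8 and 243 after serum. In G13R cells it stood at 4.84 and 6.703 FPKM and then at 37.7 and 48.7. Both lines started close together, and both G13R serum libraries lay under both GFP serum libraries. FOS rose by 4.95 ± 0.30 on the log2 scale in GFP cells and by 2.71 ± 0.30 in G13R cells (limma adjusted p = 2.25e-05 and 7.36e-04). The difference was -2.24 ± 0.42 (unadjusted p = 3.49e-04), and -2.81 or -1.67 when GFP serum replicate 1 or 2 was left out.

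FOSB, a second FOS family member (chromosome 19, 45971253 to 45978437), had 0.888 and 0.404 FPKM in the GFP libraries in normal growth and 10.8 and 21.97 after serum, against 2.01 and 2.605 and then 5.57 and 3.23 in the G13R libraries. Its GFP serum values stood above every other library, and it rose in GFP cells by 3.34 ± 0.32 (adjusted p = 1.20e-04) but had a response of 0.68 ± 0.32 in G13R cells that did not pass (adjusted p = 0.192). The difference was -2.66 ± 0.46. NR4A1, a nuclear receptor without a classical ligand, stood at 12.99 and 14.5 FPKM in the GFP libraries in normal growth and 101 and 245 after serum, against 20.6 and 23.000 and then 47.4 and 70.6 in the G13R libraries. DUSP1, the phosphatase that switches off MAP kinases, stood at 15.9 and 14.997 FPKM in the GFP libraries in normal growth and 90.2 and 208 after serum, against 21.8 and 20.7 and then 48.6 and 56.8 in the G13R libraries. NR4A1 and DUSP1 rose in both lines, by 3.43 ± 0.32 and 3.07 ± 0.29 in GFP cells and by 1.37 ± 0.32 and 1.27 ± 0.29 in G13R cells, and their differences were -2.06 ± 0.46 and -1.80 ± 0.41. The calls of both in G13R cells were lost when any 1 of the 4 G13R libraries was left out. In each of these 4 genes GFP serum replicate 2 was the highest library, and neither G13R serum library reached GFP serum replicate 1.

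EGR1, a zinc finger factor (chromosome 5, 137801179 to 137805004), stood at 19.99 and 18.3 FPKM in the GFP libraries in normal growth and 191 and 272 after serum, against 22.7 and 20.2 and then 170.5 and 209.5 in the G13R libraries. The higher G13R serum library exceeded the lower GFP one. EGR1 rose by 3.51 ± 0.16 in GFP cells and 3.08 ± 0.16 in G13R cells (adjusted p = 7.21e-06 and 3.45e-05), and its difference of -0.43 ± 0.22 had a 95% interval of -0.93 to 0.07. MYC, the growth-promoting factor, stood at 109.95 and 98.9 FPKM in the GFP libraries in normal growth and 95.7 and 71.9 after serum, against 100.3 and 101 and then 119.8 and 109.9 in the G13R libraries, with a difference of 0.52 ± 0.18 on the other side. Neither of its responses passed. Of 28 immediate-early regulators tested, 13 were lower and 3 higher at an unadjusted p under 0.05, and 15 lower and 4 higher without overlap. Their median difference was -0.44, from median responses of 1.29 in GFP cells and 0.63 in G13R cells, and single members ran from -2.66 to 0.59. The 13 were 16 without GFP serum replicate 1, where 7.89% of all genes were lower, and 11 without GFP serum replicate 2, where 2.88% were. The median was -0.73 and -0.23 in those fits. Leaving out any other library gave from 10 upward, and the 3 higher became 1 without G13R serum replicate 1 or GFP normal replicate 1.

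**Figure D2:**
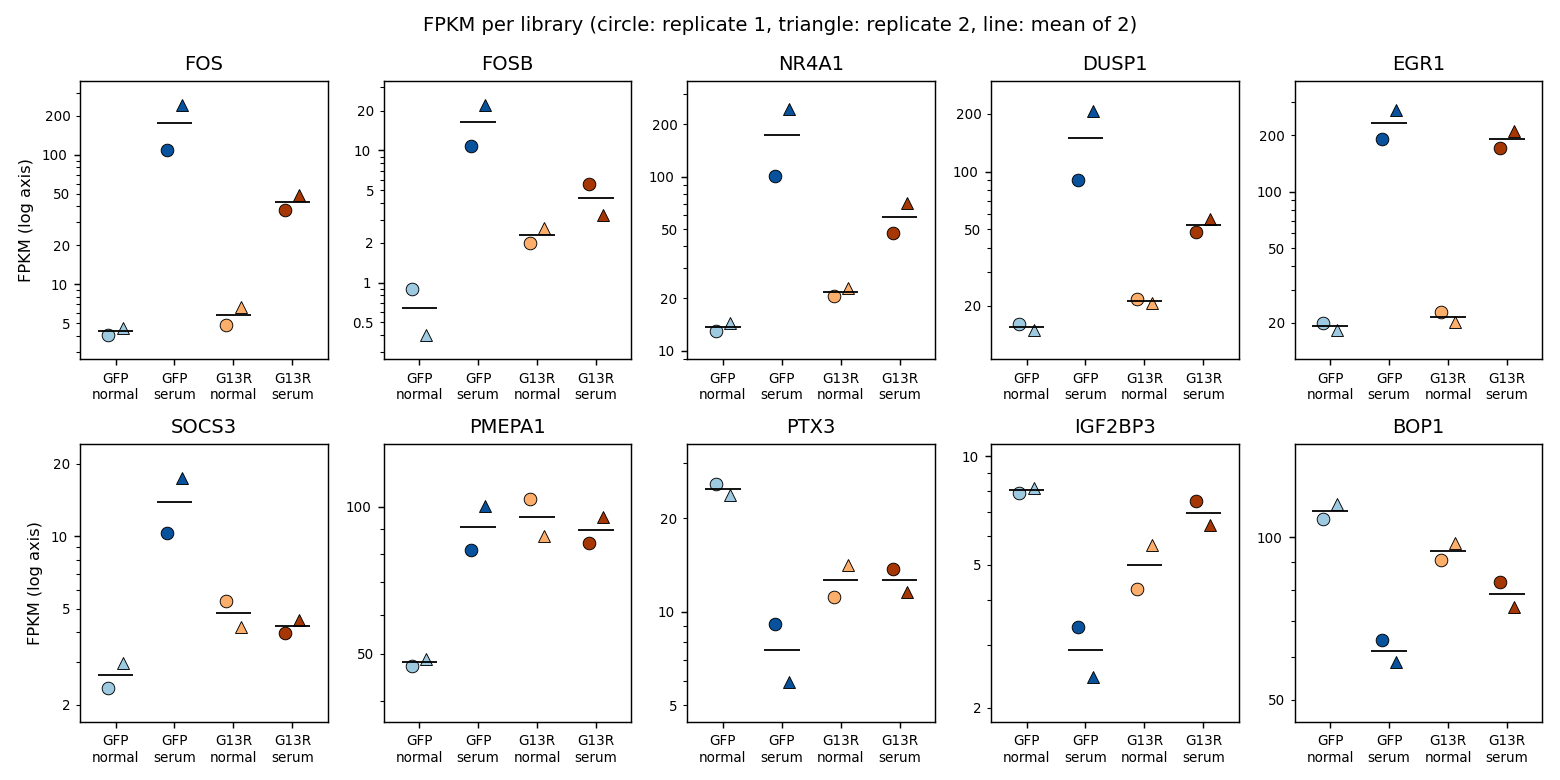
FPKM on a log axis in each of the 8 libraries for genes with wide or narrow differences, by line and condition, 1 point per library. FOS reached 109.8 and 243 FPKM in GFP cells and 37.7 and 48.7 in G13R cells after serum, while the EGR1 values of the lines overlapped.

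Regulators that feed back on ERK or break down serum-induced mRNA had a median difference of -0.20, with 4 of 21 lower and 2 higher at an unadjusted p under 0.05. DUSP7, another MAP kinase phosphatase, stood at 19.1 and 22.4 FPKM in the GFP libraries in normal growth and 13.4 and 9.697 after serum, against 15.99 and 18.4 and then 17.002 and 14.8 in the G13R libraries and fell in GFP cells by -0.80, with a difference of 0.70 ± 0.23. GADD45A, a growth arrest and stress gene, fell in GFP cells (-0.40 ± 0.09) and measured 0.05 ± 0.09 in G13R cells, which gave 0.45 ± 0.13. The list's lower count was 8 without GFP serum replicate 1 and 2 without G13R normal replicate 1 or G13R serum replicate 1.

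SRF and MRTF targets, the genes closest to the known action of unpolymerised actin, showed no shift of the difference to the lower side. Of 29 tested, 6 were higher and 1 lower at an unadjusted p under 0.05, 11 were higher and 2 lower without overlap, and the median difference was 0.10. Within a condition, the list's median of G13R against GFP cells was -0.18 in normal growth and -0.13 after serum. All genes had -0.07 and -0.03. The 6 became 1 without G13R normal replicate 1 or G13R serum replicate 1 and 8 without GFP serum replicate 1. TGFB1I1, the focal adhesion protein Hic-5, stood at 7.31 and 7.81 FPKM in the GFP libraries in normal growth and 13.98 and 14.5 after serum, against 2.86 and 5.59 and then 15.9 and 16.3 in the G13R libraries, so both G13R libraries stood under the GFP ones in normal growth and above them after serum. It rose in both lines, by 0.83 ± 0.21 and 1.76 ± 0.21, with a difference of 0.93 ± 0.30. TAGLN, an actin-binding protein of contractile cells, fell in GFP cells (-0.56 ± 0.11) and measured -0.10 ± 0.11 in G13R cells. In the GFP libraries TAGLN stood at 28.4 and 30.8 FPKM in normal growth and 19.1 and 20.2 after serum. The G13R libraries had 16.2 and 17.5 and then 16.4 and 14.9, lower in both conditions. MYL12A, a myosin light chain, had a difference of 0.31 ± 0.11. In normal growth it stood at 139.6 and 139.8 FPKM in the GFP libraries against 103.9 and 108.3 in the G13R libraries. VCL, which encodes the adhesion protein vinculin, rose in both lines, by 0.48 ± 0.11 and 0.70 ± 0.11, and the difference of 0.23 ± 0.15 had an interval of -0.11 to 0.56. The SRF gene itself stood at 25.4 and 25.95 FPKM in the GFP libraries in normal growth and 20.3 and 23.3 after serum, against 22.9 and 24.9 and then 24.02 and 23.9 in the G13R libraries, with a difference of 0.24 ± 0.16. The lowest value of this list, -8.62, belonged to FLNA, chosen here after its value was seen, which was listed at 0 in 1 GFP library in normal growth and 1 G13R library after serum and at 374 to 478 FPKM in the other 6.

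CTGF, a matricellular protein gene under SRF and YAP control, stood at 198 and 179.99 FPKM in the GFP libraries in normal growth and 493 and 547 after serum, against 160.1 and 177 and then 436 and 474 in the G13R libraries. CYR61, its relative, stood at 162 and 149.9 FPKM in the GFP libraries in normal growth and 471 and 599 after serum, against 125 and 113 and then 374 and 409 in the G13R libraries. The serum values stood far above the normal growth values in each line. CTGF rose by 1.45 ± 0.09 and 1.43 ± 0.09 and CYR61 by 1.76 ± 0.11 and 1.71 ± 0.11 in GFP and G13R cells. Their differences of -0.03 ± 0.13 and -0.05 ± 0.16 had 95% intervals of -0.31 to 0.26 and -0.41 to 0.31, and both turned slightly positive when some single libraries were left out. Among 21 YAP and TEAD targets 4 were lower and 1 higher at an unadjusted p under 0.05, with a median of -0.05 that was -0.22 without GFP serum replicate 1 and 0.09 with replicate 2 left out. The 4 became 2 without G13R normal replicate 1 or G13R serum replicate 1. NUAK2, a kinase, had -1.09 ± 0.35, and FJX1, a secreted protein gene, 0.65 ± 0.18.

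Actin regulators had a median difference near that of all genes (0.07 against 0.04), while single genes named here lay further from 0. Over all genes the median absolute difference was 0.20 and the 95th percentile 0.73. ACTB stood at 2602 and 2779 FPKM in the GFP libraries in normal growth and 2543 and 2615 after serum, against 11245 and 10010.5 and then 8676 and 7949 in the G13R libraries. It fell in G13R cells (-0.35 ± 0.08, adjusted p = 0.0184) and measured -0.06 ± 0.08 in GFP cells, and its difference of -0.29 ± 0.11 was 0.10 under quantile normalization, where the highest gene of each library gets the same value. Its call in G13R cells was lost without the trend, under quantile normalization and without 3 of the 4 G13R libraries. ACTG1, the gamma-actin gene, stood at 2075 and 2309 FPKM in the GFP libraries in normal growth and 1767 and 1986 after serum, against 1846 and 1937 and then 2039 and 2004 in the G13R libraries, with a difference of 0.32 ± 0.11 and no response that passed. Of 42 genes of actin regulation and nuclear transport, 2 were higher and 2 lower at an unadjusted p under 0.05, with a median of 0.07. The higher count was 0 without G13R normal replicate 1 and 5 without GFP serum replicate 1, and the lower count 0 without GFP normal replicate 1. GSN, the severing protein gelsolin, rose in both lines from 13.5 and 14.3 to 69.2 and 100.4 FPKM and from 14.6 and 17.1 to 55.2 and 65.03, with a difference of -0.65 ± 0.23. ARPC4, an Arp2/3 subunit, had 0.37 ± 0.13.

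SOCS3, the inhibitor that cytokine signalling through STAT3 induces (chromosome 17, 76352864 to 76356158), had the second smallest p. It stood at 2.35 and 2.98 FPKM in the GFP libraries in normal growth and 10.3 and 17.5 after serum, against 5.39 and 4.205 and then 3.97 and 4.49 in the G13R libraries. The G13R libraries did not separate by condition, while both GFP serum libraries stood above all 6 others. SOCS3 rose in GFP cells by 1.99 ± 0.24 (adjusted p = 3.65e-04) against -0.14 ± 0.24 in G13R cells, a difference of -2.13 ± 0.33 (unadjusted p = 7.66e-05). PTX3, a secreted pentraxin of innate immunity (chromosome 3, 157154578 to 157161417), went the other way, with 25.8 and 23.7 FPKM in the GFP libraries in normal growth and 9.13 and 5.95 after serum, against 11.2 and 14.1 and then 13.7 and 11.6 in the G13R libraries. PTX3 fell in GFP cells by -1.62, its response in G13R cells was 0.00 ± 0.19, and the difference was 1.62 ± 0.27. The 24 tested cytokine and NF-kappaB genes had 3 higher and 3 lower at an unadjusted p under 0.05 and a median of 0.01, and each count was 1 without G13R serum replicate 1. BIRC3, an inhibitor of apoptosis, measured 0.50 ± 0.20.

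Among interferon-stimulated and STAT genes 2 of 26 were higher and 0 lower at an unadjusted p under 0.05, and 14 members had a value below 0. The higher share of 7.69% was that of all genes (7.69%), of which 4.11% were lower. Without GFP serum replicate 1 the lower count was 5, and without GFP serum replicate 2 the higher count was 0. Their medians were 0.64 in GFP cells and 0.66 in G13R cells. STAT2, the signal carrier of type I interferon, stood at 12.2 and 13.005 FPKM in the GFP libraries in normal growth and 28.996 and 38.2 after serum, against 11.3 and 14.9 and then 25.6 and 22.4 in the G13R libraries. It rose in both lines, and its difference of -0.50 ± 0.23 had overlapping responses. TRIM25, a ubiquitin ligase of the RNA sensing pathway, fell in GFP cells (-0.77 ± 0.12) and measured -0.35 ± 0.12 in G13R cells. IFIT5, an RNA-binding interferon gene, had 0.57 ± 0.22.

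TGF-beta and BMP targets had 13 of 27 (48.1%) lower at an unadjusted p under 0.05 with 0 higher, and a median of -0.33. The 13 stayed 13 without GFP serum replicate 1, became 10 without GFP serum replicate 2 and were fewest, 8, without GFP normal replicate 1. PMEPA1, a TGF-beta target that restrains SMAD signalling (chromosome 20, 56223448 to 56286592), stood at 47.2 and 48.9 FPKM in the GFP libraries in normal growth and 81.6 and 100.4 after serum, against 104 and 86.98 and then 84.3 and 95.2 in the G13R libraries. In normal growth PMEPA1 was higher in G13R cells by 0.97 ± 0.12 (adjusted p = 0.0268), as 0.0385% of all genes were (0.00769% lower), and it measured -0.01 ± 0.12 after serum. The normal growth call was lost without any 1 of the normal growth libraries or of the G13R serum libraries. PMEPA1 rose in GFP cells (0.90 ± 0.12) against -0.08 ± 0.12 in G13R cells, a difference of -0.98 ± 0.17.

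TGFBI, a TGF-beta-induced matrix protein, had 28.3 and 29.4 FPKM in the GFP libraries in normal growth and 14.3 and 17.3 after serum, against 50.2 and 49.4 and then 14.02 and 17.1 in the G13R libraries. In normal growth both G13R libraries stood above both GFP ones, a gap that did not pass (adjusted p = 0.0726), and the serum values of the lines overlapped. TGFBI fell in both lines, by -0.84 and -1.62 on the signed log2 scale, which gave -0.79 ± 0.18. SKIL, a corepressor of SMAD factors, stood at 28.6 and 23.1 FPKM in the GFP libraries in normal growth and 26.6 and 25.3 after serum, against 49.3 and 42.9 and then 30.03 and 28.1 in the G13R libraries, and it fell in G13R cells (-0.64 ± 0.12) with a GFP response of 0.01 ± 0.12. NOG and ADAM19 are not members of this list and are given as genes of smallest p. NOG encodes noggin, which binds and blocks BMPs (chromosome 17, 54671060 to 54672951). Its values were 25.7 and 26.3 FPKM in the GFP libraries in normal growth and 32.01 and 36.5 after serum, against 40.3 and 41.6 and then 27.8 and 28.4 in the G13R libraries. NOG rose in GFP cells (0.38 ± 0.10, adjusted p = 0.0174) and fell in G13R cells (-0.53 ± 0.10, adjusted p = 0.00963), and its difference was -0.91 ± 0.14. Either call was lost when a library of that line was left out, other than GFP serum replicate 1. ADAM19, a membrane metalloprotease, stood at 22.1 and 23.5 FPKM in the GFP libraries in normal growth and 19.5 and 19.96 after serum, against 35.3 and 33.3 and then 16.2 and 17.5 in the G13R libraries and fell in G13R cells (-0.98 ± 0.11) with a difference of -0.79 ± 0.15.

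Sterol synthesis and uptake genes, the targets of SREBP2, moved up in both lines, further in GFP cells. Their median responses were 1.30 in GFP cells and 0.81 in G13R cells, and the median difference was -0.31. At an unadjusted p under 0.05, 7 of 23 were lower and 1 higher. INSIG1, which holds SREBP in the endoplasmic reticulum, stood at 2.52 and 2.68 FPKM in the GFP libraries in normal growth and 19.97 and 31.1 after serum, against 4.83 and 4.48 and then 16.2 and 15.7 in the G13R libraries. It rose in both lines, by 2.85 ± 0.19 and 1.59 ± 0.19, a difference of -1.26 ± 0.27. SQLE, which makes squalene epoxide, rose by 1.51 ± 0.09 and 1.13 ± 0.09, a difference of -0.38 ± 0.13. The lower count was 11 without GFP serum replicate 1 and 3 with replicate 2 left out. Fatty acid genes had a median of 0.02 with 2 of 20 higher and 1 lower, and 4 lower without GFP serum replicate 1. In the fit of all libraries 10% of the fatty acid list was higher and 5% lower, against 7.69% and 4.11% of all genes. ACSS2, which makes acetyl-CoA from acetate, had -1.13 ± 0.34, FADS3, a desaturase family member, 0.52 ± 0.16 and ELOVL1, a fatty acid elongase, 0.48 ± 0.17.

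Genes that growth factor withdrawal usually induces were also on the lower side. Of 27 FOXO and starvation genes 8 were lower and 0 higher at an unadjusted p under 0.05, with medians of 0.83 in GFP cells and 0.34 in G13R cells and a median difference of -0.34. CCNG2, a cyclin that slows the cycle, stood at 9.13 and 9.88 FPKM in the GFP libraries in normal growth and 26.96 and 40.3 after serum, against 15.1 and 12.4 and then 21.1 and 22.03 in the G13R libraries, with a difference of -1.08 ± 0.25. FBXO32, a muscle atrophy ubiquitin ligase, stood at 5.22 and 5.83 FPKM in the GFP libraries in normal growth and 26.5 and 29.8 after serum, against 7.57 and 7.62 and then 22.6 and 23.4 in the G13R libraries. Both rose in both lines, FBXO32 by 2.16 ± 0.12 and 1.48 ± 0.12. The CCNG2 response in G13R cells (0.62 ± 0.18, adjusted p = 0.0468) no longer passed without any 1 of the 4 G13R libraries or of the GFP normal growth libraries, with another scaling, without the trend, with no filter or with the replicate block. YPEL2 rose in GFP cells (1.78 ± 0.29), measured 0.29 ± 0.29 in G13R cells and had a difference of -1.49 ± 0.41. GABARAPL1, an autophagosome protein and FOXO target held in the autophagy and lysosome list (chromosome 12, 10365057 to 10375727), stood at 34.8 and 34.6 FPKM in the GFP libraries in normal growth and 54.2 and 57.6 after serum, against 43.9 and 41.9 and then 44.2 and 45.1 in the G13R libraries. GABARAPL1 rose in GFP cells (0.67 ± 0.09) and measured 0.05 ± 0.09 in G13R cells, a difference of -0.62 ± 0.12. The list's lower count was 13 without GFP serum replicate 1, 6 without GFP serum replicate 2 and 4 without G13R serum replicate 1.

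The p53 targets had 7 of 25 lower and 0 higher at an unadjusted p under 0.05 and a median of -0.28, and the count was 13 without GFP serum replicate 1 but 2 without GFP serum replicate 2. RRM2B, the p53-induced ribonucleotide reductase subunit, rose in GFP cells (0.54 ± 0.09) and measured 0.12 ± 0.09 in G13R cells. PLK2, a polo-like kinase, rose in both (1.07 ± 0.11 and 0.58 ± 0.11), and BBC3, the death protein PUMA, had a difference of -0.56 ± 0.21. Autophagy and lysosome genes had 2 of 29 higher and 1 lower (6.90% and 3.45%, against 7.69% and 4.11% of all genes). Their median difference was -0.10, with 20 of 29 below 0. Without GFP serum replicate 1 or 2 that median was -0.18 or -0.03. GABARAPL1, given above, had the smallest p among them at -0.62 ± 0.12. MITF and TFE3, 2 related factors of lysosomal genes, went the other way at 0.90 ± 0.23 and 0.35 ± 0.15. The median difference of 18 circadian clock genes was 0.03 (-0.08 to 0.06 with 1 library left out), and 10 lay above 0. Of these 18 genes 3 were lower and 0 higher at an unadjusted p under 0.05. They were DBP (-0.66 ± 0.21) and TEF (-0.78 ± 0.28), 2 clock output factors, and the repressor CRY2 (-0.61 ± 0.27), and 1 of 18 was lower without GFP serum replicate 2 or without G13R serum replicate 1.

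**Figure D3:**
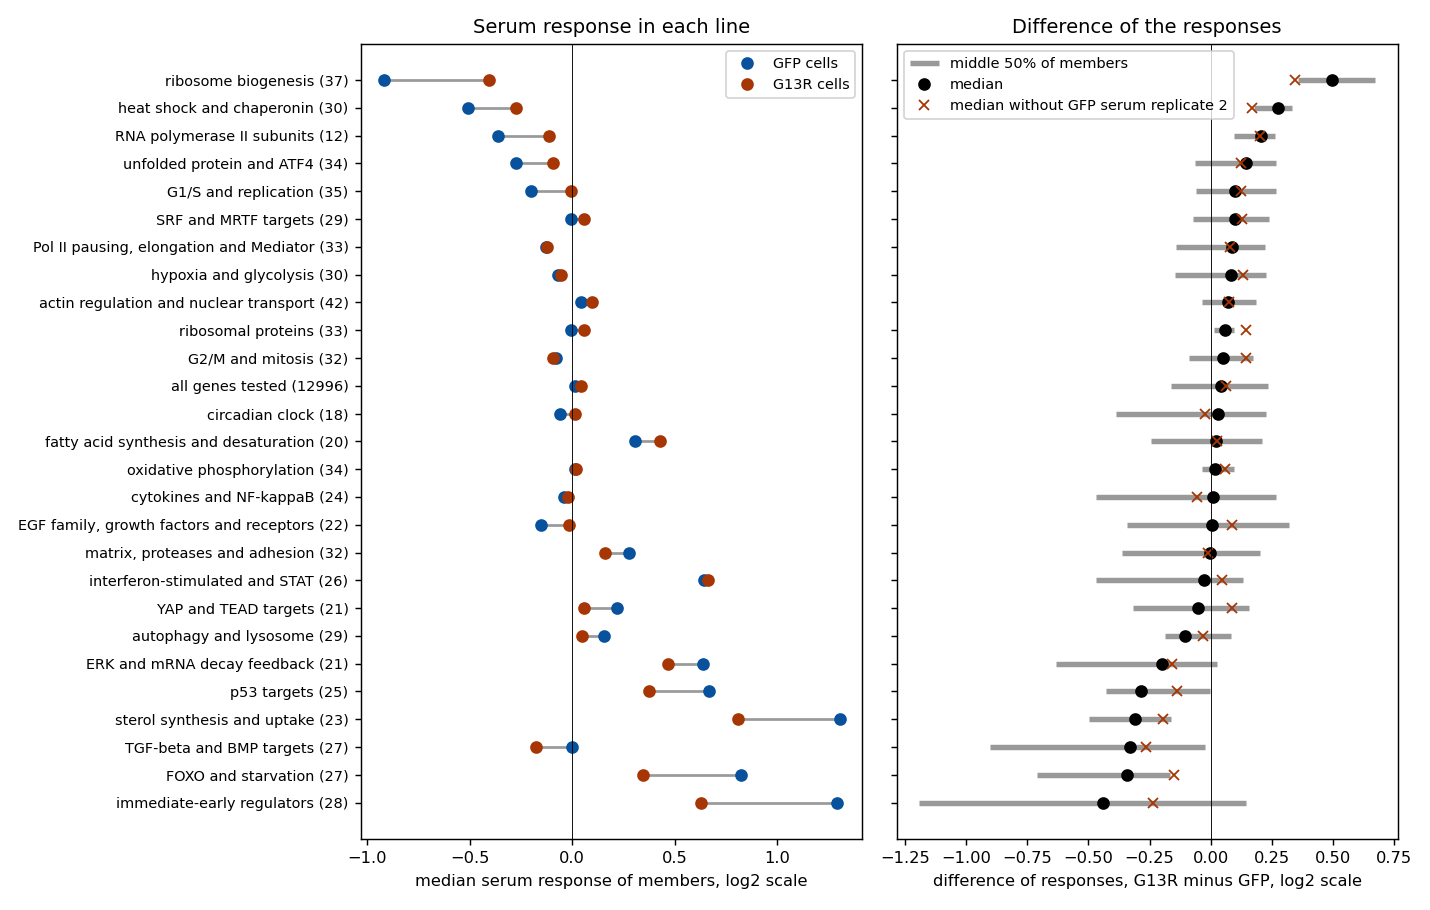
Median serum response of each gene list in GFP and G13R cells (left, log2) and median difference with the middle 50% of its members (right, log2), with the number tested in brackets. Ribosome biogenesis stands highest at 0.50 and immediate-early regulators lowest at -0.44, against 0.04 for all genes, and crosses give the medians without GFP serum replicate 2.

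Ribosome biogenesis factors, which make and process ribosomal RNA, had the widest gap on the higher side. All 37 tested had a difference above 0, as they also did without either GFP serum library, against 56.1% of all genes. At an unadjusted p under 0.05, 24 were higher and 0 lower, and 31 were higher without overlap. The median difference was 0.50, from median responses of -0.92 in GFP cells and -0.41 in G13R cells. The 24 were 32 without GFP serum replicate 1, where 11.8% of all genes were higher, and 20 without GFP serum replicate 2, where 6.46% were. They were fewest, 16, without G13R normal replicate 1. Set to a mean of 0 in GFP cells in normal growth, the list's median stood at -0.75 and -1.07 in the GFP serum libraries, at -0.24 and -0.16 in normally grown G13R cells, and at -0.53 and -0.69 in stimulated ones. The median of all genes stood at -0.096 and -0.059 in normally grown G13R cells, at -0.028 and -0.014 in stimulated ones, and at -0.0091 and 0.023 in the GFP serum libraries. These medians are a description without a test.

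POLR1E, a subunit of RNA polymerase I, stood at 109 and 115 FPKM in the GFP libraries in normal growth and 59.4 and 55.3 after serum, against 86.6 and 94.9 and then 69.4 and 68.6 in the G13R libraries. It fell in both lines, by -0.95 and -0.39 on the signed scale, with a difference of 0.56 ± 0.12 (unadjusted p = 8.74e-04). BOP1, a large subunit maturation factor, stood at 108 and 115 FPKM in the GFP libraries in normal growth and 64.5 and 58.9 after serum, against 90.9 and 97.7 and then 82.8 and 74.2 in the G13R libraries, and NHP2, a box H/ACA snoRNP protein, at 300.4 and 299 FPKM in the GFP libraries in normal growth and 205 and 209 after serum, against 248 and 274 and then 238 and 248 in the G13R libraries. BOP1 and NHP2 fell in GFP cells (-0.85 ± 0.09 and -0.53 ± 0.07) and measured -0.26 ± 0.09 and -0.10 ± 0.07 in G13R cells. The cytosolic ribosomal proteins themselves differed little: of 33, 0 had an unadjusted p under 0.05, 2 did without GFP serum replicate 2, and their differences ran from -0.06 to 0.16. RPS9, RPLP1 and RPS4X had the smallest p among them, at 0.14 ± 0.11, 0.16 ± 0.12 and 0.13 ± 0.11.

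**Figure D4:**
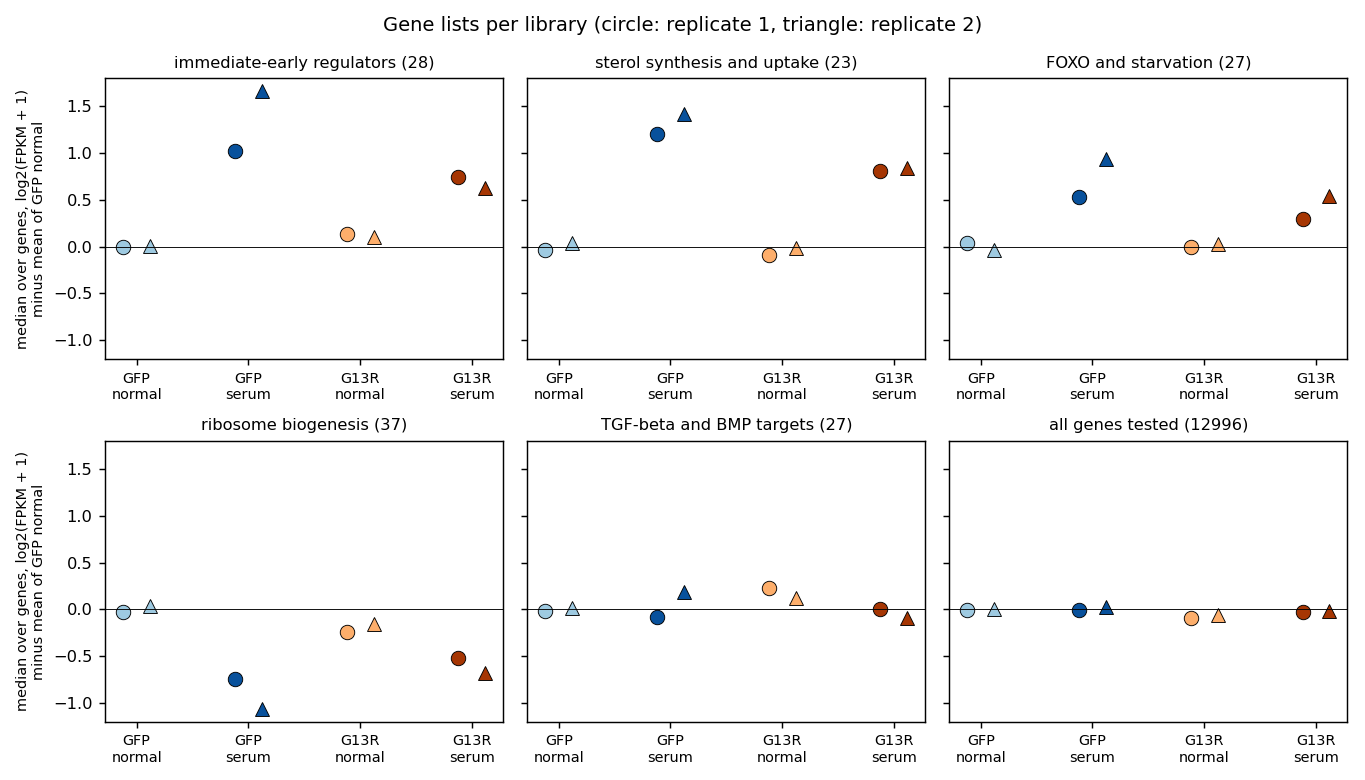
Median of each list's members in each library, as the log2 distance from the GFP normal growth mean, 1 point per library. In ribosome biogenesis the G13R serum libraries lie at -0.53 and -0.69, above the GFP serum libraries at -0.75 and -1.07.

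Heat shock and chaperonin genes had 10 of 30 higher and 2 lower at an unadjusted p under 0.05, and 21 higher without overlap. Of all genes 7.69% were higher at that p, 4.11% lower, and 17.5% higher without overlap. The list's median was 0.28. Without GFP serum replicate 1 or 2 it was 0.39 or 0.17, and under quantile normalization 0.17. HSPA8, the constitutive cytosolic HSP70, stood at 1228 and 1214 FPKM in the GFP libraries in normal growth and 846 and 719 after serum, against 1114 and 1101 and then 964 and 927 in the G13R libraries. HSPA8 fell in GFP cells (-0.65 ± 0.08) and measured -0.23 ± 0.08 in G13R cells, a difference of 0.42 ± 0.11. HSPE1, the mitochondrial cochaperonin, fell in both lines (-0.91 ± 0.08 and -0.52 ± 0.08). CRYAB, a small heat shock protein, went the other way, with 25.2 and 29.3 FPKM in the GFP libraries in normal growth and 50.7 and 84.4 after serum, against 54.9 and 39.1 and then 42.2 and 48.1 in the G13R libraries, and rose in GFP cells (1.24 ± 0.22) against -0.04 ± 0.22 in G13R cells, with a difference of -1.28 ± 0.31. HSPA1A stood at 94.5 and 85.8 FPKM in the GFP libraries in normal growth and 73.1 and 61.6 after serum, against 275 and 242 and then 255 and 227 in the G13R libraries. It was higher in G13R cells in both conditions, while its difference was 0.32 ± 0.15, and HSPA1A shares reads with the near-identical HSPA1B. The higher count of this list was 19 without GFP serum replicate 1, 5 without GFP serum replicate 2 and 4 without G13R serum replicate 1 or GFP normal replicate 1. PFDN2, a subunit of prefoldin, which hands actin and tubulin to the chaperonin (chromosome 1, 161070346 to 161087901), stood at 249.6 and 245 FPKM in the GFP libraries in normal growth and 133 and 112 after serum, against 209.6 and 236 and then 176 and 177 in the G13R libraries. PFDN2 is not a member of the heat shock and chaperonin list and is given as a gene of smallest p. It fell in both lines, by -1.01 ± 0.10 and -0.33 ± 0.10, with a difference of 0.68 ± 0.14. Its call in G13R cells (adjusted p = 0.0475) was lost without any 1 of the 4 G13R libraries or of the GFP normal growth libraries, under quantile normalization, without the trend and with no filter.

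Of 34 unfolded protein and ATF4 genes 5 were higher and 0 lower at an unadjusted p under 0.05 (median 0.14), and 8 were higher without GFP serum replicate 1, 2 without GFP serum replicate 2 and 0 without G13R normal replicate 1. SLC7A5 and SLC3A2 form an amino acid transporter. SLC7A5 fell in both lines (-0.98 ± 0.09 and -0.62 ± 0.09), and SLC3A2 fell in GFP cells (-0.84 ± 0.12), with differences of 0.36 ± 0.12 and 0.45 ± 0.17. TRIB3, a stress pseudokinase, measured 0.60 ± 0.22. RNA polymerase II subunits had 2 of 12 higher, a median of 0.20, and 10 members above 0, and 1 was higher without either G13R serum library. POLR2A, the largest subunit, stood at 506 and 497 FPKM in the GFP libraries in normal growth and 277 and 296 after serum, against 472 and 479 and then 350.5 and 324 in the G13R libraries. It fell in both lines, by -0.81 and -0.50 on the signed scale, a difference of 0.31 ± 0.10. POLR2B fell in GFP cells (-0.31 ± 0.08) against 0.02 ± 0.08, and POLR2D had 0.25 ± 0.12. Among 33 pausing, elongation and Mediator genes 1 was higher and 1 lower: ELL, an elongation factor, at 0.49 ± 0.18, and MED14, the Mediator backbone, at -0.75 ± 0.18. CCNH, the cyclin of the TFIIH kinase, had 0.37 ± 0.20.

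Cell cycle genes shifted little. Of 35 G1/S and replication genes 4 were higher and 0 lower at an unadjusted p under 0.05 (median 0.10). Of 32 G2/M genes 2 were higher and 0 lower (median 0.05). The higher shares were 11.4% and 6.25%, against 7.69% of all genes. CDT1, a replication licensing factor, measured 0.67 ± 0.20, the helicase subunit gene MCM2 0.41 ± 0.12 and the histone mRNA binding protein gene SLBP 0.39 ± 0.14. MCM2 and SLBP fell in GFP cells (-0.35 ± 0.09 and -0.40 ± 0.10). HMMR, PLK1 and CENPF, mitotic genes, had 0.45 ± 0.18, 0.32 ± 0.14 and -0.32 ± 0.17. Without G13R normal replicate 2 the G1/S count was 7. The G2/M counts were 0 and 5 without GFP serum replicate 1 and 5 and 0 with replicate 2 left out. The G2/M median was -0.07 without GFP serum replicate 1 and -0.04 under quantile normalization.

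The hypoxia and glycolysis list had 5 of 30 higher and 1 lower, and 1 higher without G13R serum replicate 2 or GFP normal replicate 2. HK2, the inducible hexokinase, stood at 27.1 and 26.1 FPKM in the GFP libraries in normal growth and 11.1 and 5.73 after serum, against 22.97 and 24.02 and then 16.1 and 15.8 in the G13R libraries, and it fell in GFP cells (-1.61 ± 0.22) with a difference of 1.08 ± 0.31. PFKP, a phosphofructokinase, had 0.38 ± 0.15 and the histone demethylase gene KDM3A -0.77 ± 0.25. Nuclear genes of oxidative phosphorylation had a median of 0.02 and 2 of 34 higher (5.88%, against 7.69% of all genes). These were NDUFB3 at 0.43 ± 0.13 and NDUFB8 at 0.97 ± 0.32, both complex I subunits. In the GFP libraries NDUFB8 stood at 6.67 and 5.32 FPKM in normal growth and 4.08 and 4.23 after serum. The G13R libraries had 4.62 and 3.49 and then 8.11 and 4.80, so the G13R serum libraries were far apart. CYC1, cytochrome c1, had 0.16 ± 0.12.

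Growth factor and receptor genes had 4 of 22 higher and 1 lower (5 and 3 without GFP serum replicate 1 or GFP normal replicate 2, and 2 higher without G13R serum replicate 1). IGFBP5, an IGF-binding protein, stood at 1.42 and 1.26 FPKM in the GFP libraries in normal growth and 19.01 and 42.9 after serum, against 2.199 and 4.73 and then 10.3 and 11.1 in the G13R libraries. IGFBP5 rose in both lines, by 3.66 ± 0.35 and 1.45 ± 0.35, and both G13R serum libraries lay under both GFP ones, a difference of -2.21 ± 0.49. AREG, the EGF receptor ligand amphiregulin, stood at 9.203 and 10.7 FPKM in the GFP libraries in normal growth and 10.9 and 10.8 after serum, against 5.76 and 5.42 and then 10.7 and 12.8 in the G13R libraries and rose in G13R cells (0.94 ± 0.15). MET, the receptor of hepatocyte growth factor, fell in GFP cells (-0.67 ± 0.14) and measured -0.02 ± 0.14 in G13R cells. Matrix, protease and adhesion genes had 3 of 32 higher and 6 lower, with a median of 0.00, 6 higher without GFP serum replicate 1 and 3 lower without G13R normal replicate 1. PLAUR, the urokinase receptor, stood at 61.7 and 67.5 FPKM in the GFP libraries in normal growth and 26.9 and 20.5 after serum, against 63.99 and 63.3 and then 39.7 and 34.2 in the G13R libraries and fell in both lines, with 0.65 ± 0.19. MMP2, a gelatinase, rose in both (0.95 ± 0.11 and 0.45 ± 0.11), and COL5A1, a fibrillar collagen chain, had -0.83 ± 0.26.

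The other genes of smallest p belong to none of these groups. IGF2BP3, an mRNA-binding protein (chromosome 7, 23349828 to 23510086), stood at 7.92 and 8.17 FPKM in the GFP libraries in normal growth and 3.35 and 2.43 after serum, against 4.29 and 5.69 and then 7.51 and 6.44 in the G13R libraries. It fell in GFP cells (-1.23 ± 0.19) and measured 0.42 ± 0.19 in G13R cells, a difference of 1.65 ± 0.26. NEDD9, a scaffold of focal adhesions (chromosome 6, 11183531 to 11382581), had 0.819 and 0.854 FPKM in the GFP libraries in normal growth and 3.82 and 7.35 after serum, against 2.43 and 1.46 and then 1.38 and 1.36 in the G13R libraries. The GFP serum libraries alone stood above 3 FPKM, and the difference was -2.08 ± 0.39. NFATC4, a calcium-regulated factor (chromosome 14, 24834879 to 24848810), stood at 3.09 and 3.27 FPKM in the GFP libraries in normal growth and 8.28 and 9.73 after serum, against 5.18 and 5.95 and then 5.74 and 5.28 in the G13R libraries, rose in GFP cells (1.26 ± 0.16) and differed by -1.27 ± 0.23.

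SLC25A22, a mitochondrial glutamate carrier (chromosome 11, 790475 to 798316), stood at 36.6 and 35.6 FPKM in the GFP libraries in normal growth and 13.7 and 12.5 after serum, against 32.2 and 38.2 and then 23.1 and 25.8 in the G13R libraries. It fell in both lines, by -1.39 ± 0.12 and -0.51 ± 0.12, with a difference of 0.89 ± 0.17. AKR1C3, a steroid and prostaglandin reductase (chromosome 10, 5077549 to 5149878), had 3.195 and 4.54 FPKM in the GFP libraries in normal growth and 25.8 and 30.005 after serum, against 5.98 and 4.97 and then 15.7 and 15.8 in the G13R libraries, rose in both lines (2.58 ± 0.17 and 1.38 ± 0.17) and differed by -1.20 ± 0.24. PNRC1, a nuclear receptor coactivator (chromosome 6, 89790470 to 89794879), had 4.25 and 5.18 FPKM in the GFP libraries in normal growth and 17.9 and 23.9 after serum, against 6.56 and 6.77 and then 12.6 and 10.9 in the G13R libraries, and also rose in both with a difference of -1.19 ± 0.24. In these 3 genes both lines moved the same way and the GFP serum libraries stood farther from normal growth.

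ARHGEF2, a microtubule-bound activator of RhoA (chromosome 1, 155916645 to 155966129), stood at 57.4 and 51.1 FPKM in the GFP libraries in normal growth and 39.7 and 37.6 after serum, against 46.8 and 45.6 and then 55.4 and 50.5 in the G13R libraries. DRAP1, a repressor of RNA polymerase II initiation (chromosome 11, 65686728 to 65689032), had 445 and 459.6 FPKM in the GFP libraries in normal growth and 346 and 305 after serum, against 386 and 420.1 and then 422 and 426 in the G13R libraries. Both fell in GFP cells (-0.48 ± 0.10 and -0.48 ± 0.08) and their G13R responses of 0.19 ± 0.10 and 0.08 ± 0.08 did not pass, which gave differences of 0.67 ± 0.14 and 0.55 ± 0.11. KLHL18, an adaptor of the CUL3 ubiquitin ligase (chromosome 3, 47324407 to 47388306), fell in GFP cells from 34.8 and 31.2 to 16.3 and 18.6 FPKM against 27.4 and 25.2 and 24.3 and 24.3 in G13R cells, a difference of 0.77 ± 0.16. NLRP10, a member of the NOD-like receptors (chromosome 11, 7980971 to 7986973), rose in G13R cells from 0.7804 and 1.24 to 3.44 and 3.297 FPKM, with GFP values of 2.07 and 3.26 and then 1.699 and 1.61, and differed by 1.57 ± 0.31.

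Noncoding RNAs closed the set. UCA1, a long noncoding RNA (chromosome 19, 15939757 to 15947130), stood at 12.3 and 10.3 FPKM in the GFP libraries in normal growth and 8.35 and 9.19 after serum, against 10.9 and 12.7 and then 2.81 and 4.05 in the G13R libraries. It fell in G13R cells (-1.54 ± 0.18) and measured -0.33 ± 0.18 in GFP cells, a difference of -1.21 ± 0.25. RMRP, the RNA of RNase MRP, which is not polyadenylated, stood at 13.2 and 18.96 FPKM in the GFP libraries in normal growth and 11.7 and 29.4 after serum, against 44.7 and 24.02 and then 5.02 and 5.11 in the G13R libraries and differed by -2.71 ± 0.53. SNORA11 (chromosome 10, 74885838 to 74885965) and SNORD97 (chromosome 11, 10823014 to 10823155), small nucleolar RNAs whose spans are under 200 bases, held exact zeros. SNORA11 was listed at 60.9 and 45.7 FPKM and then at 0 in both GFP serum libraries, and at 43.2 and 22.5 and 90.1 and 16.9 in G13R cells. SNORD97 was listed at 20.5 and 14.6 FPKM in the GFP serum libraries and at 0 elsewhere except for 9.68 in G13R normal replicate 1, so no fold is given for either.

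In 19 of the 24 genes of smallest p the response lay further from 0 in GFP cells, and in 6 of them the lines stood further apart in normal growth than after serum. Over all genes the SD of the responses was 0.532 in GFP cells and 0.396 in G13R cells, and 63.3% of genes had the larger absolute response in GFP cells. Among genes called in both lines, 504 of the 822 that rose moved further in GFP cells (median responses of 0.83 and 0.77), as did 404 of the 490 that fell (medians of -0.68 and -0.48).

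Genes chosen in a pair of libraries look larger there, so the size of the response was also read in libraries that had no part in the choice. Genes that moved at least 2-fold in 1 GFP pair were measured in the other GFP pair and in all G13R pairs. The median G13R response was 0.683 times that of the other GFP pair for genes that went up (0.611 to 0.775 over 4 choices) and 0.556 times for genes that went down (0.524 to 0.589). With genes chosen in G13R pairs instead, the GFP response was 1.11 times that of the other G13R pair for genes that went up (1.05 to 1.19) and 0.723 times for genes that went down (0.578 to 0.825). Median upward responses were thus smaller in G13R cells by either choice, while for downward responses each line's chosen genes moved less in the other line. These ratios are descriptions without a test.

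**Figure D5:**
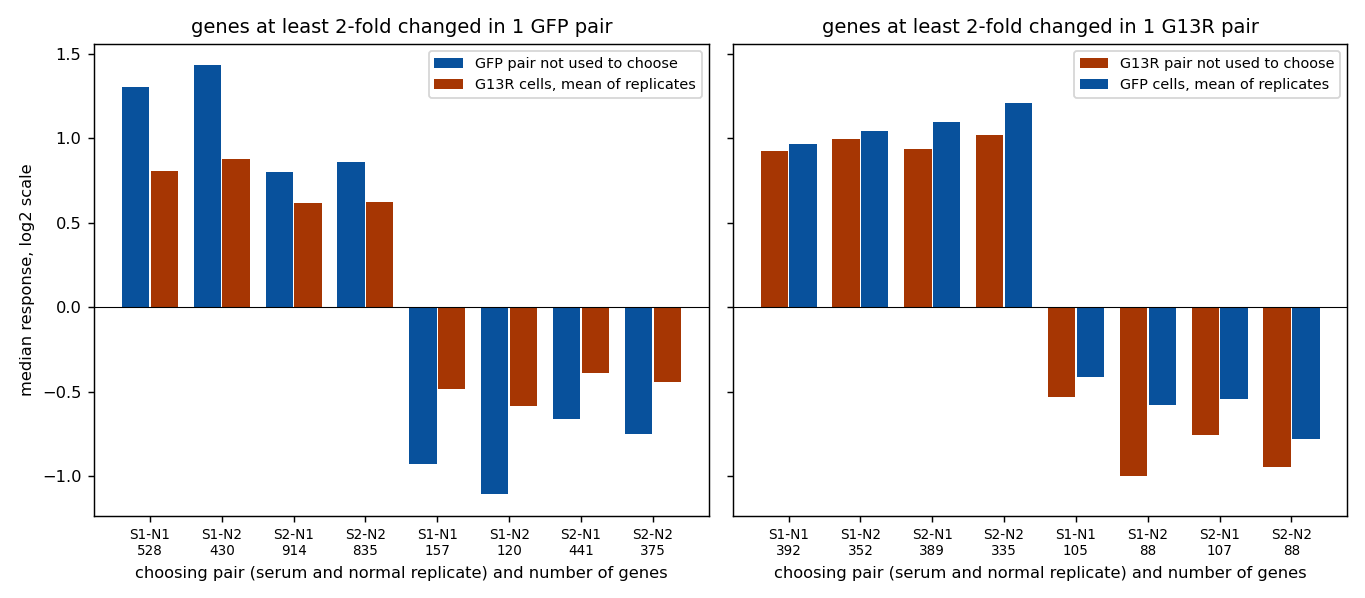
Median response (log2) of genes that moved at least 2-fold in 1 library pair, measured in the other pair of that line and in the pairs of the other line. Genes chosen in GFP pairs moved 0.683 times as far up and 0.556 times as far down in G13R cells as in the GFP pair not used to choose them.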

How the data were processed

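Poly(A) RNA of 8 U2OS libraries was sequenced, per the labels' protocols. The authors deposited 1 table of FPKM values per gene and library. TopHat2 2.0.13, Cufflinks 2.2.1, hg19 and the fly build BDGP5 are named per the submitters' processing notes, which give no annotation. Column names gave the library, C standing for normal growth, and 0 columns were left over. FPKM keeps no counts: at most 16.1% of low values lay at a common ratio between libraries, so reads were not recovered, depth is unknown and neither a count model nor counting intervals were possible. Reads shared by near-identical or overlapping genes make those values uncertain. Gene spans are 1-based hg19 positions, with 1 added to each start.

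Values were analysed as log2(FPKM + 1), which understates changes of low values, with limma 3.58.1 in R 4.3.3 (trend, 1 mean per group, 4 residual degrees of freedom). The filter was 1 FPKM in 2 or more libraries, p-values were adjusted by Benjamini-Hochberg over all 12996 genes, and the procedure was tested on simulated data. The rule named called genes or, with fewer than 10 called, the 24 genes of smallest p with a mean of at least 2 FPKM, plus the 3 tested members of smallest p in each of 26 lists and a few set genes. Unnamed transcripts and 28 symbols turned into dates were not named, and a few genes that the rule or lists hold are not reported here. The members, lists (777 genes, 717 tested, some in several lists) and set genes were chosen with earlier results of these data known. Promoters are RefSeq sequences of GRCh38.p14.

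Alternatives changed the pseudocount (0.1), the filter (none, or 5 FPKM), the scaling (median-ratio, quantile), the trend (none), the threshold (adjusted p under 0.1, or at least 2-fold) and the fold in the library pairs (1.5), added the replicate number as a block, or left out each library. Choosing genes in G13R pairs, dropping genes spanning under 200 bases and list counts without single libraries were added after seeing the data.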

Additional observations from a re-analysis of the deposited data

Results flagged for a closer look

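For the following genes among the 24 of smallest p, every library pairing moved one way in GFP cells and every pairing the opposite way in G13R cells. Down in GFP cells and up in G13R cells were IGF2BP3 (difference 1.65), NLRP10 (1.57), ARHGEF2 (0.67) and DRAP1 (0.55), all on the log2(FPKM + 1) scale. Up in GFP cells and down in G13R cells were NOG (-0.91) and NEDD9 (-2.08). The difference itself did not pass limma's test in any of them (adjusted p = 0.259). These genes were chosen by the p of that difference, and of those listed both response calls were made for NOG alone.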

How the results depend on the processing

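The difference called 1 higher gene at a pseudocount of 0.1 (SNORA11), 2 higher and 8 lower with no filter (all under 0.3 FPKM), and 1 and 1 under quantile normalization (GAPDH and EEF1A1, at tied top ranks). It called 0 and 0 with a filter at 5 FPKM, median-ratio scaling, no trend, an adjusted p under 0.1 or short genes left out. Leaving out 1 library gave 0 to 301 higher and 0 to 185 lower, both highest without GFP-Serum replicate 1. The sample titles do not say whether replicate numbers pair the samples. Deviations of same-numbered libraries correlated weakly, by 0.017 to 0.121 over 6 group pairs, which does not settle it. With the number as a block, the difference had 0 calls (smallest adjusted p 0.07), normal growth 13 higher and 70 lower, and after serum 127 and 276.

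The GFP response had 1941 genes higher and 2044 lower, 1093 and 1189 with no filter, and 1017 to 2164 and 1129 to 2124 with 1 library left out. The G13R response had 1074 and 601, 362 and 216 with no filter, 268 lower without the trend, and 299 to 1427 and 110 to 931 with 1 library left out. In normal growth 5 were higher and 1 lower, against 9 and 2 with no filter, 9 and 3 under quantile normalization, 8 lower at 5 FPKM, 0 lower without the trend, 6 lower without short genes, and 4 to 24 and 0 to 63 with 1 library left out. After serum 43 were higher and 64 lower, against 3 and 1 with no filter, 108 and 155 at 5 FPKM, 5 and 1 without the trend, 93 higher under quantile normalization, 38 lower at a pseudocount of 0.1, and 5 to 704 and 0 to 924 with 1 library left out, both highest without GFP-Serum replicate 1.

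The G13R share of the GFP response was 0.683 up and 0.556 down, 0.902 and 1.41 with genes chosen in G13R pairs, and for genes going down 0.621 (quantile) and 0.612 (median-ratio scaling). With 1 library left out, CTGF (-0.03) ran from -0.10 to 0.048, with 0.047, 0.032, 0.042 and 0.048 without G13R-Normal replicate 2, G13R-Serum replicate 1, GFP-Normal replicate 2 and GFP-Serum replicate 2. CYR61 (-0.05) ran from -0.22 to 0.12, with 0.02, 0.01, 0.00478 and 0.12 without G13R-Normal replicate 1 and the last 3 of these. ACTB (-0.29) turned to 0.10 under quantile normalization. The cause of these shifts was not tested. Of the other values of named genes under alternatives, 1593 kept direction and side of the threshold and 57 passed it.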
